A study of Mus musculus with 8 samples.

Results

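Expression of 35 genes of fatty acid and sterol synthesis was examined in mouse soleus, a slow hindlimb muscle, on Agilent arrays. The 35 genes were taken by name from a list of lipogenic regulators, the enzymes of fatty acid, desaturation, elongation and cholesterol synthesis, and the first steps of glycerolipid synthesis, and every one of them was among the 22222 genes tested. All animals were male C57BL/6J mice on a high-fat diet, 8 weeks old at the start and 14 weeks old at sampling. One group of 4 samples received Porphyromonas gingivalis, a bacterium of human gum disease, suspended in 100 µL of physiological saline and delivered through a feeding needle for 6 weeks. The other 4 samples came from mice that received the saline alone. The number of bacterial cells and the bacterial strain are not given in the sources used here. The question was whether the bacterium changes gene expression in muscle, here in its pathways for making lipid. The labels give 1 array per sample and do not say that each sample came from a separate mouse, and the p-values reflect no more than the scatter among these 4 and 4 samples.

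Cells make fatty acids from acetyl-CoA that is carboxylated by acetyl-CoA carboxylase and condensed by fatty acid synthase, after which elongases and desaturases lengthen the chain and insert double bonds. Cholesterol is built from the same acetyl-CoA through mevalonate, isoprenoids, squalene and lanosterol. Both routes are controlled by SREBP transcription factors, which are held in the endoplasmic reticulum by SCAP and INSIG proteins while sterol is plentiful, and fatty acid synthesis is also driven by LXR and by the carbohydrate-sensing factor ChREBP. In muscle these pathways are less active than in liver or fat, and fat cells lying between muscle fibres carry many of the same transcripts.

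Levels are given as log2 signal relative to the 75th percentile of the same array, so a negative level means a signal below that percentile, and levels of different genes are not compared because each probe has its own response. Differences are P. gingivalis minus saline on the log2 scale, with groups as the sample records give them. The authors' deposited table carries the groups the other way round. All 8 of its columns matched best the array of the other group with the same number (r = 0.862 to 0.904 across probes, with each probe centred), so every direction given here would turn if the table's names were right. All 8 arrays lay on a single slide, by the file headers. The first position number there was 1 for every P. gingivalis array and 2 for every saline array. That position and group cannot be told apart. Probes well above background numbered 30180 to 34077 on the saline arrays and 34853 to 35367 on the P. gingivalis arrays (two-sided exact permutation p = 0.0286). The slow-fibre marker Myh7, the myosin of slow muscle, stood at 9.12 to 9.37 on all 8 arrays. No other muscle was measured, so that level alone does not check the tissue. The fast-fibre marker Myh4 varied widely, from 1.95 to 7.70 on the saline arrays and from 4.03 to 7.66 on the P. gingivalis arrays. The summed linear level of the 8 slow-fibre markers, all 8 of them higher, was 2983 to 3177 in saline and 3287 to 3565 in P. gingivalis. That of the 9 endothelial markers was 54.9 to 58.95 and 42.7 to 49.98, with 3 markers higher and 6 lower. The mean deviation of the endothelial markers from each gene's average overlapped between groups. It was 0.017 to 0.15 on the saline arrays and -0.23 to 0.13 on the P. gingivalis arrays. In either list 0 genes passed the threshold. The part of these cell types in the differences below was not tested. In whole muscle, fewer cells of a type and less RNA per cell cannot be told apart.

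No gene among the 35 differed between the groups after correction for multiple testing. By limma with Benjamini-Hochberg adjustment over all 22222 genes, 0 of the 35 had an adjusted p under 0.05, and their adjusted p ran from 0.0632 (Elovl1) to 0.918 (Me1). Over all genes, 26 passed (0.117%), 8 higher (0.036%) and 18 lower (0.081%). At an unadjusted p under 0.05 there were 11 of the 35 (31.4%), 7 higher and 4 lower, against 19.7% of all genes (10.1% higher and 9.66% lower). The 4 arrays of one group lay wholly outside the range of the other for 9 of the 35 (25.7%), against 13.4% of all genes (7.35% higher and 6.07% lower). Of these 9, 6 were higher in P. gingivalis (Srebf2, Fdft1, Nsdhl, Dhcr7, Agpat2 and Lpin1) and 3 lower (Elovl1, Hmgcs1 and Stard4). These counts describe the list, which was chosen with earlier results of these data known, and no test of the list was made.

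Differences among the 35 genes were small and ran both ways. They lay between -0.43 and 0.38 on the log2 scale, with 16 genes higher and 19 lower. Their median was -0.03 and their mean 0.01, beside a median of -0.01 over all genes. The median size of a difference was 0.12 in the list and 0.13 over all genes. Each of the 35 representative probes was well above background on all 8 arrays and 0 were saturated, so the small differences were measured at a detectable signal.

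The number of genes past the threshold depended on how the arrays were scaled. Centring each array on the median of all its spots, rather than on the 75th percentile, moved the median difference of all genes by 0.15, from -0.01 to 0.14. On that scale 29 of the 35 genes were higher and 6 lower, and 6 passed the threshold, all higher (Agpat2, Dhcr7, Fdft1, Lpin1, Nsdhl and Srebf2), beside 10.7% of all genes. Set against the all-gene median instead of 0, 16 of the 35 lay above and 19 below on that scale, the same counts as on the main scale. Of all the calls on that scale 96.0% were higher, against 30.8% on the main scale. The median net signal of all spots was 91.0 to 100 on the saline arrays and 79.5 to 88.3 on the P. gingivalis arrays (two-sided exact permutation p = 0.0286). With quantile normalization 0 of the 35 passed, and 71.9% of the 221 calls among all genes were higher.

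**Figure D1:**
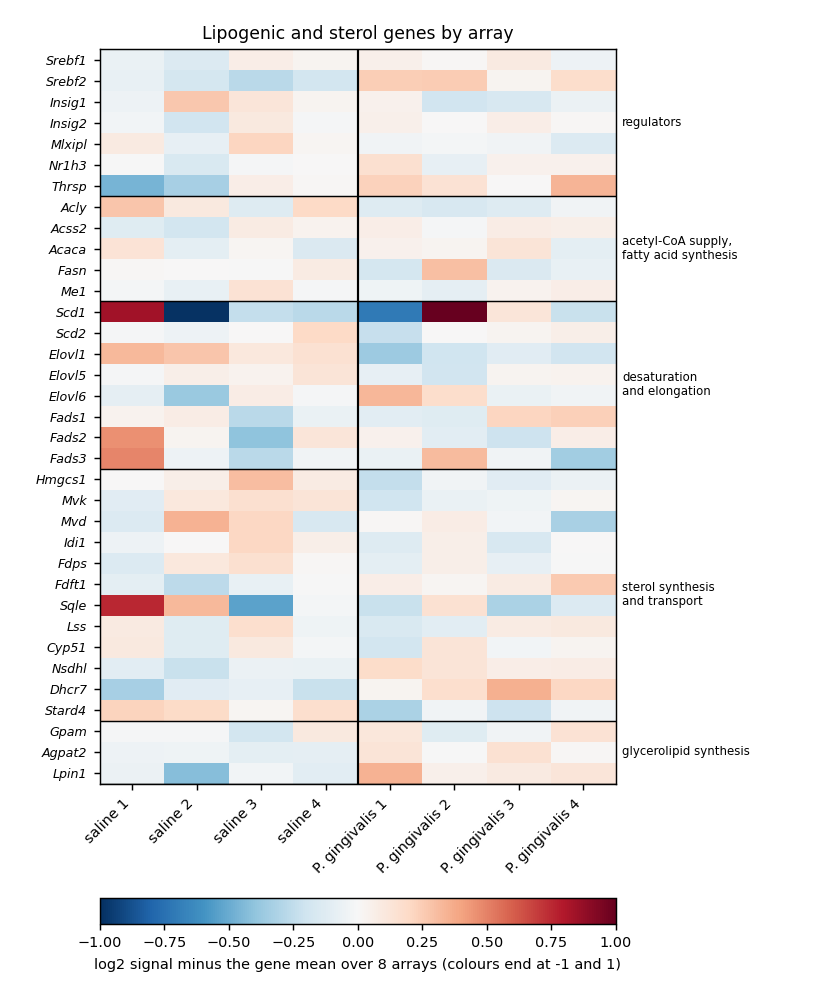
Heat map of the 35 genes (rows, grouped by role) on the 4 saline and 4 P. gingivalis arrays (columns); colour is the log2 signal minus the gene's mean over the 8 arrays. Rows such as Srebf2, Dhcr7 and Lpin1 turn from blue to red between the groups and Elovl1 and Stard4 from red to blue, while Scd1 is highest on saline 1 and P. gingivalis 2.

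Among the 7 regulators, 5 were higher and 2 lower in P. gingivalis, with a median difference of 0.07 and 0 past the threshold. The clearest separation was in Srebf2, which encodes SREBP-2, the activator of cholesterol synthesis. Srebf2 read 0.68, 0.59, 0.49 and 0.57 on the saline arrays and 1.01, 1.01, 0.79 and 0.93 on the P. gingivalis arrays. The lowest P. gingivalis array was above the highest saline array. The difference was 0.35 ± 0.07 (SE, n = 4 and 4; 95% interval 0.19 to 0.51), or 1.28-fold, with limma's adjusted p at 0.0756. A second, dimmer Srebf2 probe gave 0.28 ± 0.13 (SE), with groups that overlapped. In the authors' deposited table, with its groups turned, Srebf2 was at 0.26 with an adjusted p of 0.0818.

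Srebf1, which encodes the SREBP-1 forms that drive fatty acid synthesis, did not separate the groups. Its levels were 2.54, 2.47, 2.67 and 2.64 in saline and 2.66, 2.62, 2.70 and 2.56 in P. gingivalis. The difference was 0.06 ± 0.06 (SE), with a 95% interval of -0.09 to 0.20, and 0.20 with arrays centred on the median of all spots (unadjusted p = 0.0364, adjusted p = 0.128, limma). The transcript forms of Srebf1 were not analysed here.

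The INSIG genes, whose products retain SREBP in the endoplasmic reticulum, did not pass the test. Insig1, itself a target of SREBP, was at -3.86, -3.53, -3.68 and -3.77 in saline and at -3.76, -3.997, -3.96 and -3.86 in P. gingivalis. The groups overlapped, and the difference was -0.19 ± 0.09 (SE), adjusted p = 0.290 in limma's fit. It was -0.045 with normexp background correction, -0.030 with quantile normalization and -0.037 with arrays centred on the median of all spots. Insig2 differed by 0.07 ± 0.07 (SE) on the probe that stands for it, and by 0.10 and 0.32 on its other kept probes. On the probe at 0.32, in build mm9 at chr1:123203517-123203752 on the minus strand and so spanning more than one piece of the transcript, the saline arrays read 0.72 to 0.91 and the P. gingivalis arrays 1.05 to 1.13. Its adjusted p was 0.0658 when limma was run on every kept probe, so its groups did not overlap but it did not pass either.

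Of the other regulators, Thrsp, the lipogenic Spot 14 protein induced by thyroid hormone and carbohydrate, had the largest difference. Thrsp read 1.32, 1.45, 1.85 and 1.79 in saline and 2.01, 1.92, 1.78 and 2.13 in P. gingivalis. One P. gingivalis array fell inside the saline range, and the difference of 0.36 ± 0.14 (SE) had an adjusted p of 0.208. Mlxipl, which encodes ChREBP, was at 4.50 ± 0.12 (SD, n = 4) in saline and 4.38 ± 0.05 (SD, n = 4) in P. gingivalis. Nr1h3, which encodes LXR alpha, was at 1.68 ± 0.08 (SD, n = 4) and 1.76 ± 0.10 (SD, n = 4). The groups overlapped for both genes, and neither passed the threshold (adjusted p = 0.408 and 0.537 in limma's fit).

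The 5 genes of acetyl-CoA supply and fatty acid synthesis had 2 higher and 3 lower, with a median difference of -0.02 (0.13 with arrays centred on the median of all spots). There were 0 whose groups did not overlap, against 13.4% of all genes. Fasn, the fatty acid synthase that assembles palmitate, read 1.0999, 1.09, 1.09 and 1.17 in saline and 0.91, 1.39, 0.95 and 1.01 in P. gingivalis. The P. gingivalis arrays spread to both sides of the saline values, and the difference was -0.05 ± 0.11 (SE; 95% interval -0.29 to 0.20). Acly, the citrate lyase that releases acetyl-CoA in the cytosol, was at 1.77, 1.59, 1.36 and 1.69 in saline and 1.36, 1.33, 1.36 and 1.46 in P. gingivalis. One saline array lay among the P. gingivalis values, and the difference of -0.23 ± 0.09 (SE) had an adjusted p of 0.228.

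Acaca, acetyl-CoA carboxylase 1, differed by 0.05 ± 0.08 (SE) and Me1, the malic enzyme that supplies NADPH, by -0.02 ± 0.07 (SE). Other kept probes gave 0.12 and 0.37 for Acaca and 0.14 for Me1, all with groups that overlapped. The Acaca probe at 0.37 was dim, well above background on 1 saline and 4 P. gingivalis arrays. Acss2, the synthetase that makes acetyl-CoA from acetate, differed by 0.09 ± 0.07 (SE) on its brightest probe. Its 3 other kept probes gave larger differences, from 0.29 to 0.42. On 2 of these 3 the P. gingivalis arrays all lay above the saline arrays, at 0.70 to 0.94 against 0.33 to 0.64 on the probe nearest the brightest one and at -1.76 to -1.44 against -2.27 to -1.86 on another. Their adjusted p over all kept probes were 0.139 and 0.113 in limma's fit, so the size of the Acss2 difference depended on the probe and none passed the test.

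Desaturation and elongation held the gene with the smallest p of the 35. Elovl1, the elongase of saturated and monounsaturated very long chains, read 2.30, 2.26, 2.08 and 2.13 in saline and 1.62, 1.78, 1.87 and 1.79 in P. gingivalis. Every P. gingivalis array was below every saline array, and the probe lies in build mm9 at chr4:118105163-118105222 on the plus strand. The difference was -0.43 ± 0.08 (SE; 95% interval -0.61 to -0.25), 1.35-fold lower, with an adjusted p of 0.0632. A second probe named for the same transcript, at chr4:118104741-118104800, gave 0.07 ± 0.07 (SE) with groups that overlapped (-1.32 to -1.07 in saline and -1.13 to -1.02 in P. gingivalis). Both probes were well above background on all 8 arrays, so the probes disagree on Elovl1, and their mean gave -0.18. In the authors' deposited table, with its groups turned, Elovl1 was at -0.22 with an adjusted p of 0.166. That row was matched by transcript, which both probes share, so it may not be the value of either probe alone.

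**Figure D2:**
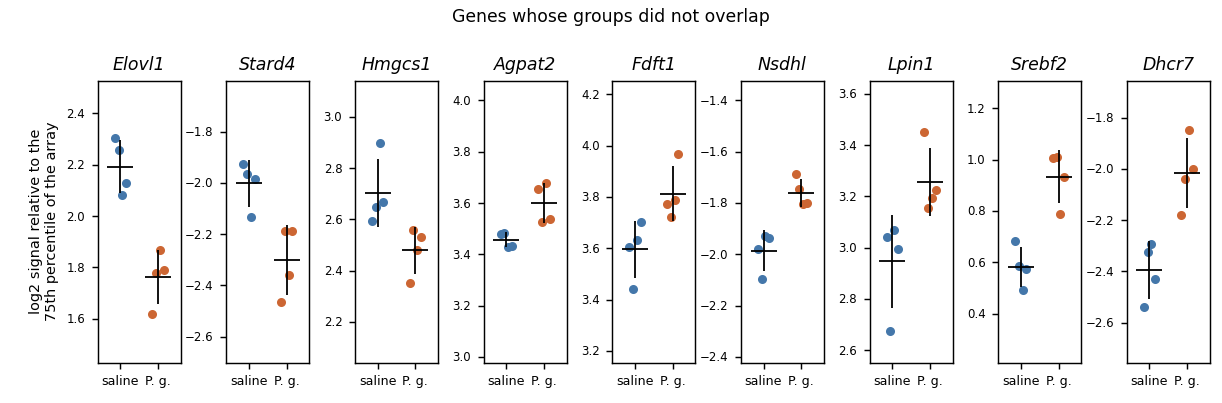
Log2 signal relative to the array's 75th percentile (vertical axes, all of the same height) for the 9 genes whose groups did not overlap; blue points are the 4 saline arrays, orange points the 4 P. gingivalis arrays, and bars the mean with its SD. From left to right the difference runs from -0.43 in Elovl1 to 0.38 in Dhcr7.

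Scd1, the stearoyl-CoA desaturase that makes oleate, varied far more between arrays of a group than between groups. It read 2.27, 0.44, 1.19 and 1.16 in saline and 0.72, 2.90, 1.55 and 1.21 in P. gingivalis. Saline 1 and P. gingivalis 2 were the high arrays, and the difference of 0.33 ± 0.53 (SE; 95% interval -0.89 to 1.54) turned to -0.11 without P. gingivalis 2. The fat cell marker Adipoq, which encodes adiponectin, was high on the same arrays, at 1.63, 0.37, 0.66 and 0.85 in saline and 0.24, 2.06, 0.84 and 0.65 in P. gingivalis. Cidec, a fat droplet protein, read 2.48, 0.61, 1.05 and 1.21 and then 0.81, 3.004, 0.90 and 0.68. Of the 12 tested adipocyte markers, 8 were highest of their group on both of these arrays, and Lep, Cidea, Fabp4 and Lipe were not. Adipoq and Cidec, and Cfd in the figure, are among the 8 and were picked after their values were seen. Over all 12 the mean deviation from each gene's average was 0.68 on saline 1 and 0.56 on P. gingivalis 2, and between -0.39 and 0.23 on the other 6 arrays. The list as a whole had 6 markers higher and 6 lower, 0 past the threshold, and a summed linear level of 140 to 184 in saline and 156 to 173 in P. gingivalis. Ucp1, the brown fat marker, had no kept probe. The part of fat cells in the Scd1 values was not tested.

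**Figure D3:**
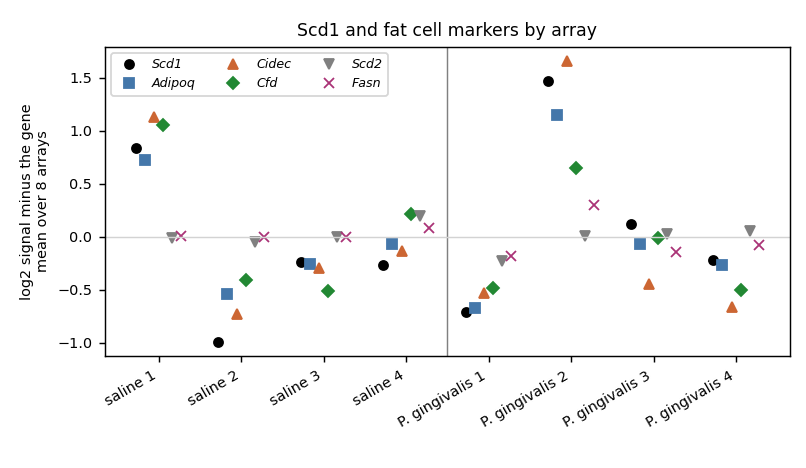
Log2 signal minus the gene's mean over 8 arrays (vertical axis) on each array (horizontal axis) for Scd1, Scd2 and Fasn and for the fat cell markers Adipoq, Cidec and Cfd. Scd1 and the 3 markers are high together on saline 1 and P. gingivalis 2, where Scd2 stays near its mean. Fasn is highest of its group on P. gingivalis 2 but not on saline 1. The 3 markers are among the 8 of 12 that were highest of their group on both arrays, and the other 4 are not plotted.

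Scd2, the desaturase of brain and many other tissues, did not share that pattern, at 0.55 ± 0.11 (SD, n = 4) in saline and 0.48 ± 0.13 (SD, n = 4) in P. gingivalis. Elovl5, which elongates polyunsaturated chains, differed by -0.11 ± 0.07 (SE), and Elovl6, which carries palmitate to stearate, by 0.20 ± 0.12 (SE). The delta-5 desaturase gene Fads1 and the delta-6 desaturase gene Fads2, which make long polyunsaturated fatty acids, differed by 0.11 ± 0.12 and -0.10 ± 0.17 (SE). Their other kept probes gave -0.58 ± 0.42 and -0.37 ± 0.30 (SE), and on each of these saline 1 stood apart, at -2.36 against -4.45 to -3.9998 on the other saline arrays for Fads1 and at -3.04 against -4.37 to -4.23 for Fads2. Fads3 differed by -0.07 ± 0.19 (SE). Fads3 was highest of its group on saline 1 and on P. gingivalis 2, as were Scd1, Srebf2 and, below, Sqle and Cyp51. How many of all genes share that order was not counted, so it is not read as a pattern of these genes. Fads3 read 0.27 on saline 1 against -0.49 to -0.26 on the other saline arrays. On P. gingivalis 2 it read 0.097 against -0.57 to -0.25 on the others of that group. In all, 3 of the 8 genes of this role were higher and 5 lower, with a median of -0.07 (0.081 with arrays centred on the median of all spots). There was 1 whose groups did not overlap (12.5%, against 13.4% of all genes).

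The 12 genes of sterol synthesis and transport differed in both directions. There were 3 higher and 9 lower, with a median difference of -0.09 that was 0.059 with arrays centred on the median of all spots. The 3 that were higher all had groups that did not overlap. Groups did not overlap for 41.7% of the 12, against 13.4% of all genes. The members that separated the groups stand at different steps. Hmgcs1, which makes HMG-CoA at the head of the mevalonate route, was lower. Fdft1, the squalene synthase at the branch to sterols, and Nsdhl and Dhcr7, which act late on the sterol ring, were higher. Stard4, which carries cholesterol between membranes, was lower.

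Dhcr7, the reductase of the last step to cholesterol, had the largest positive difference of the 35 genes. It read -2.54, -2.32, -2.29 and -2.43 in saline and -2.18, -2.04, -1.85 and -1.999 in P. gingivalis. The groups did not overlap, and the difference was 0.38 ± 0.09 (SE; 95% interval 0.17 to 0.58), or 1.30-fold, with an adjusted p of 0.0945. Without saline 1 and P. gingivalis 3, the arrays on which fast-fibre markers were lowest, it was 0.27 with an adjusted p of 0.288. In the authors' deposited table, with groups turned, Dhcr7 was at 0.37, with the smallest adjusted p of the 35 genes there, 0.0583.

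Nsdhl, the sterol dehydrogenase that helps remove the methyl groups at carbon 4 of the ring, read -1.98, -2.10, -1.93 and -1.94 in saline and -1.69, -1.75, -1.81 and -1.80 in P. gingivalis. The difference was 0.23 ± 0.06 (SE), adjusted p = 0.115 in limma's fit. A second, dim Nsdhl probe, well above background on 1 saline and 4 P. gingivalis arrays, gave 0.22 ± 0.33 (SE) with groups that overlapped. Fdft1 read 3.61, 3.44, 3.63 and 3.70 in saline and 3.77, 3.72, 3.79 and 3.97 in P. gingivalis. Its groups were separated by a narrow gap, with a difference of 0.22 ± 0.08 (SE), adjusted p = 0.196 in limma's fit, and 0.25 on a second probe whose groups overlapped.

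On the lower side, Hmgcs1 was at 2.59, 2.65, 2.90 and 2.67 in saline and at 2.35, 2.56, 2.48 and 2.53 in P. gingivalis. The gap between its groups was small, and the difference was -0.22 ± 0.08 (SE), adjusted p = 0.201 in limma's fit. Stard4 was at -1.93, -1.96, -2.13 and -1.99 in saline and at -2.47, -2.19, -2.36 and -2.19 in P. gingivalis. All P. gingivalis values lay below the saline values, with a difference of -0.30 ± 0.08 (SE), adjusted p = 0.124 in limma's fit.

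The remaining sterol enzymes had negative differences with groups that overlapped, at adjusted p of 0.365 to 0.886 in limma's fit. All but Sqle turned positive with arrays centred on the median of all spots. Mvk and Mvd, the mevalonate kinase and decarboxylase, differed by -0.14 ± 0.08 and -0.13 ± 0.14 (SE), though a second Mvk probe gave 0.19. Idi1 and Fdps, which make the isoprenoid building blocks and farnesyl diphosphate, differed by -0.11 ± 0.08 and -0.07 ± 0.08 (SE). Sqle, the squalene epoxidase that is a control point of the pathway, spread widely, at -2.84, -3.26, -4.12 and -3.61 in saline and -3.81, -3.44, -3.91 and -3.73 in P. gingivalis. Its difference of -0.26 ± 0.26 (SE) was 0.0069 without saline 1 and P. gingivalis 3. Lss and Cyp51, which form lanosterol and strip its methyl group at carbon 14, differed by -0.04 ± 0.09 and -0.03 ± 0.08 (SE). A dimmer Lss probe gave 1.08 ± 0.79 (SE) because of 1 array, P. gingivalis 3, at -0.61 while the other 7 arrays read between -4.65 and -3.88.

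**Figure D4:**
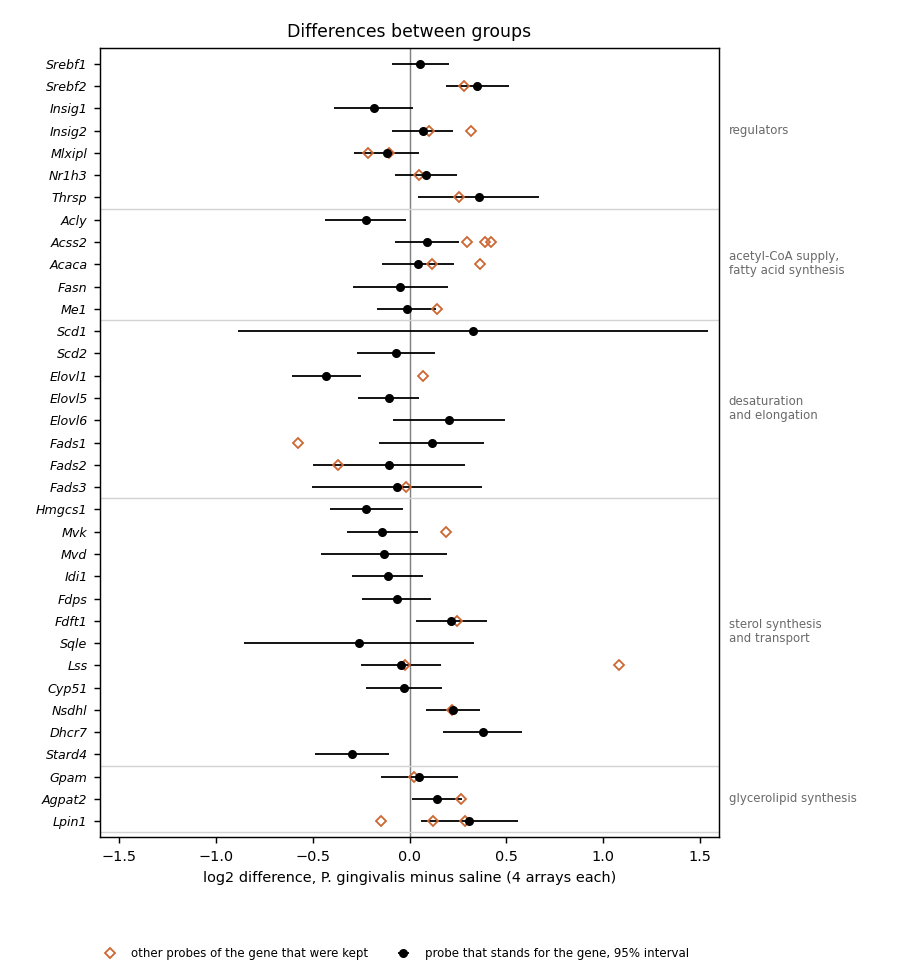
Log2 difference, P. gingivalis minus saline, with its 95% interval (black) for the 35 genes by role, and the differences of other kept probes of the same genes (open diamonds). Intervals are not corrected for the number of genes, and 11 of them lie clear of 0, while 6 genes (Elovl1, Fads1, Mvk, Lss, Me1 and Lpin1) have an open diamond on the other side of 0 from the black point.

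The promoters of Hmgcs1, Nsdhl, Dhcr7 and Srebf2 are shown because SREBP factors are known to act through short elements near the start site of sterol genes. They are the sterol genes whose groups did not overlap, except Fdft1 and Stard4, whose promoters are not shown, with Srebf2 added. No link between these letters and the differences was tested. Of the 35 genes, 28 had an entry in the RefSeq promoter table of build GRCm38.p6, with 39 start sites between them. The 250 bases before each start were searched on both strands for the classical sterol regulatory element TCACCCCAC, for the same element with any base in its middle place (TCACNCCAC, which includes the exact one), for the NF-Y box CCAAT and for the E-box CACGTG. The exact element was in 163 of 32851 promoters in the table (0.496%) and in 1 of the 39, that of Hmgcs1. The relaxed element was in 1.05% of all promoters and in 2 of the 39, those of Hmgcs1 and Mlxipl. The NF-Y box, which binds a factor that works with SREBP, was in 33.8% of all promoters and in 22 of the 39 (56.4%), and the E-box in 6.02% and in 4 of the 39 (10.3%). In the sequences below, read 5′ to 3′, capitals mark these elements, and ATTGG is the NF-Y box on the opposite strand. The windows are chr13:119690101-119690350 for Hmgcs1, chrX:72918271-72918520 for Nsdhl, chr7:143829964-143830213 for Dhcr7 (the last of its 3 start sites) and chr15:82147019-82147268 for Srebf2, all on the plus strand.
Hmgcs1: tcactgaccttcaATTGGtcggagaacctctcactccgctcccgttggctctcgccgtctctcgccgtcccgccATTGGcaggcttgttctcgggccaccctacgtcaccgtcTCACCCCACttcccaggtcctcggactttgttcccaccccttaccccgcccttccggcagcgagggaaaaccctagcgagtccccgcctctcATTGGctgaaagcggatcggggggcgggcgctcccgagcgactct
Nsdhl: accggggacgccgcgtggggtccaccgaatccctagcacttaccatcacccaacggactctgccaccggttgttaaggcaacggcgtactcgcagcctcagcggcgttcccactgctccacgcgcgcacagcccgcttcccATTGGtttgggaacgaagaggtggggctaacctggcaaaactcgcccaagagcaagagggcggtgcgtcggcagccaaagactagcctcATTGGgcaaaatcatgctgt
Dhcr7: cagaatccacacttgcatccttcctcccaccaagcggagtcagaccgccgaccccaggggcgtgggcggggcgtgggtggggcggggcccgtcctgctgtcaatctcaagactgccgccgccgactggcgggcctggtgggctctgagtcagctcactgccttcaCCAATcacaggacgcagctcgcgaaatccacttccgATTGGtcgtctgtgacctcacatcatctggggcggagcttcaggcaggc
Srebf2: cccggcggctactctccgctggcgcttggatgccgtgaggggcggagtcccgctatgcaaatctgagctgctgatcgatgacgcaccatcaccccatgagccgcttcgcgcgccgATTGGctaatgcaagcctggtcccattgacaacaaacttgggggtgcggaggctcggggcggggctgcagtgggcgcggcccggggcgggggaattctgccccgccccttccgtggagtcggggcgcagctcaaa
Hmgcs1 holds the exact sterol regulatory element with NF-Y boxes on either side of it and was lower in P. gingivalis. The Nsdhl and Srebf2 windows and the Dhcr7 window shown hold NF-Y boxes and no match to either form of the element. The windows of the other 2 Dhcr7 start sites hold 0 NF-Y boxes, and 1 of them holds an E-box. A match is a description of letters, and the absence of one says only that these letters are not in this window.

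All 3 genes of glycerolipid synthesis were higher in P. gingivalis, with a median of 0.14. The groups did not overlap for 2 of these 3, against 13.4% of all genes. Lpin1, the phosphatidate phosphatase that also acts as a nuclear coregulator, read 3.04, 2.68, 3.07 and 2.995 in saline and 3.45, 3.15, 3.19 and 3.23 in P. gingivalis. The difference was 0.31 ± 0.11 (SE), or 1.24-fold, with an adjusted p of 0.180. A neighbouring Lpin1 probe gave 0.29 ± 0.11 (SE) and also separated the groups, while 2 dimmer probes nearer the start of the gene gave 0.12 ± 0.18 and -0.15 ± 0.25 (SE). Agpat2, the acyltransferase that makes phosphatidic acid, was at 3.48, 3.48, 3.43 and 3.43 in saline and 3.65, 3.53, 3.68 and 3.54 in P. gingivalis. Its difference was small but the saline arrays lay close together, at 0.14 ± 0.06 (SE), adjusted p = 0.217 in limma's fit. A second Agpat2 probe gave 0.26 ± 0.07 (SE) with groups that did not overlap and an adjusted p of 0.0993 over all kept probes. Gpam, the mitochondrial glycerol-3-phosphate acyltransferase, differed by 0.05 ± 0.09 (SE).

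Among the other genes of the same pathways, 0 passed the threshold by limma in any of 4 further lists. In the order given below, 17.6%, 33.3%, 37.5% and 20% of their genes had an unadjusted p under 0.05, against 19.7% of all genes. Of 17 other sterol genes, 7 were higher and 10 lower (median -0.04, 3 at an unadjusted p under 0.05). The smallest p were those of Mbtps1, the protease that makes the first cut in SREBP (-0.18 ± 0.05, SE, adjusted p = 0.128), and Hsd17b7 (-0.19 ± 0.07, SE, adjusted p = 0.193), an enzyme of the same ring steps as Nsdhl. So Nsdhl and Hsd17b7 differed in sign. Of 18 other lipogenic genes tested, 11 were higher and 7 lower (median 0.05, 6 at an unadjusted p under 0.05). Pnpla3, an SREBP-1 and ChREBP target of lipid droplets, was at -3.997 to -3.41 in saline and -3.11 to -2.76 in P. gingivalis, a difference of 0.63 ± 0.14 (SE), adjusted p = 0.0897. Scd3 was at -1.01 to -0.83 and -1.32 to -1.04, a difference of -0.33 ± 0.08 (SE), adjusted p = 0.0987. Scd3 thus separated the groups where its relatives Scd1 and Scd2 did not.

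Among 8 tested LXR and ChREBP genes, 5 were higher and 3 lower (median 0.06, 3 at an unadjusted p under 0.05). Txnip, a strongly ChREBP-responsive gene, read 6.48 to 6.76 in saline and 6.89 to 7.25 in P. gingivalis, a difference of 0.42 ± 0.10 (SE), adjusted p = 0.0987. Mlx, the partner of ChREBP, differed by 0.17 ± 0.06 (SE), adjusted p = 0.175. Of 10 other glycerolipid genes, 7 were higher and 3 lower (median 0.05, 2 at an unadjusted p under 0.05). Dgat2 and Dgat1, the acyltransferases that complete triglyceride, differed by 0.24 ± 0.07 (SE, adjusted p = 0.119) and 0.15 ± 0.05 (SE, adjusted p = 0.203), and their groups did not overlap.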

How the data were processed

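Total RNA (200 ng) of each of 8 soleus samples was labelled with Cy3 and hybridised to 1 Agilent mouse array, per the labels. The deposited spot intensity values came from Agilent Feature Extraction 11.0.1.1, per the file headers (the submitters' processing notes list 11.1), with probe positions in build mm9. No annotation of that build was used, so exons were not assigned to probes. Groups were taken from the sample titles.

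Values are log2 of the processed signal, from which Feature Extraction had already taken the background (per the file headers), minus log2 of that array's 75th percentile over its non-control spots. Control spots and outlier-flagged spots were left out, and repeat spots were averaged. A probe was kept with an unflagged spot on each array and a signal well above background on 4 or more of the 8, which left 33637 of 56605. Probes were named through RefSeq tables of assembly GRCm38.p6 by accession (32994), current symbol (10224) or older symbol (520), and 12867 kept the name in the files. The 35 genes were found by the name in the files, with 79 probes, of which 62 were kept. The kept probe with the highest mean stood for each gene.

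The comparison used limma 3.58.1 (R 4.3.3), two-sided, by lmFit and eBayes without covariates, with Benjamini-Hochberg adjustment over 22222 genes and a threshold of 0.05, tested on simulated data first. Replicate numbers were not used to pair the arrays in this fit. Per the file headers, same-numbered arrays of the 2 groups carried the same second position number on the slide. Their deviations from the group means correlated at -0.0577 to 0.231, against -0.195 to 0.162 for arrays of different numbers. Arrays correlated at 0.989 to 0.995 within groups and 0.989 to 0.992 between them, and 0 were identical. Per the file headers, 1 array, P. gingivalis 2, had an extraction status marked for evaluation. The number of arrays limits the precision.

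The authors' deposited table holds log2 values, p-values and score columns (a moderated statistic and log odds, not used), by its column names. The genes and lists were chosen with earlier results of these data known. Values per array are given for genes with an unadjusted p under 0.05 or groups that do not overlap and for Srebf1, Insig1, Fasn and Scd1. Sqle, Fads3, Adipoq, Cidec and Cfd (plotted only), and the values on probes that do not stand for a gene, were added after they were seen. Of each further list the genes with the 2 smallest p are named. Alternatives covered background correction, scaling, filter, probe rule, gene names, variance model, array weights, replicate block and arrays left out.

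Besides the lists described in the text, markers of other cells were counted, with 0 past the threshold in each: Schwann cell 2 higher and 8 lower, fast fibre 9 and 1, macrophage 1 and 9, neutrophil 0 and 7, and red blood cell 6 and 0.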

Additional observations from a re-analysis of the deposited data

Results flagged for a closer look

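Within the groups of 4 arrays, 3 of the 70 groups checked (35 genes in 2 groups) held a value whose gap to its nearest neighbour took up more of the group's range than Dixon's 95% critical value allows. Chance gives about 1 such group in 20. Mlxipl was at 4.30 on P. gingivalis 4 and at 4.40 to 4.42 on the other P. gingivalis arrays. Nr1h3 was at 1.56 on saline 2 and at 1.70 to 1.72 on the other saline arrays. Fasn was at 1.17 on saline 4 and at 1.09 to 1.0999 on the other saline arrays.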

How the results depend on the processing

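Of the 35 genes, 22 kept their sign under every alternative chosen at the start and 16 also under the all-spot median. The count past the threshold, 0 here, was 1 with normexp and with the filter set at all 8 arrays (Elovl1 in both), 2 with a trended and robust variance (Elovl1 and Srebf2), 3 without a filter on dim probes (Dhcr7, Elovl1 and Srebf2) and 6 with the all-spot median. It stayed at 0 with quantile normalization, centring on the median of kept probes, the mean of probes, names as the files give them, array weights, the replicate block, each probe on its own, the authors' deposited table and each array left out. The intended centring on the array median was run first over all spots and then, with that result seen, over the kept probes. The all-spot form is therefore given as an alternative added after the data were seen.

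Over all genes, 26 passed (8 higher, 18 lower). There were 453 with normexp (271 higher, 182 lower), 221 with quantile normalization (159, 62), 91 with the median of kept probes (57, 34), 2385 with the all-spot median (2290, 95), 261 with the filter on all 8 arrays (145, 116), 5154 without a filter (512, 4642), 9 with the mean of probes (2, 7), 567 with the trended variance (347, 220), 199 with array weights (109, 90), 57 probes with each probe on its own (27, 30) and 431 rows in the authors' deposited table. With the replicate block limma called 0 (4432 at an unadjusted p under 0.05), and same-numbered arrays deviated together at r = 0.0639, -0.0577, -0.0405 and 0.231. Without saline 1 and P. gingivalis 3 it called 0 (3072 unadjusted), and without 1 array 2 (saline 2, P. gingivalis 1 or 2), 3 (saline 4, P. gingivalis 3 or 4), 5 (saline 1) or 6 (saline 3). The causes were not tested.

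Median differences moved under some settings. With the all-spot median they were 0.12 for all 35 genes, 0.22 for regulators, 0.13 for fatty acid synthesis, 0.081 for desaturation and elongation, 0.059 for sterol genes and 0.29 for glycerolipid genes. The median of all 35 was 0.028 with quantile normalization, 0.024 with the mean of probes, 0.022 without saline 1 and P. gingivalis 3, and -0.061 to 0.030 without 1 array. Fatty acid synthesis was at 0.063 with the mean of probes and -0.043 to 0.029 without 1 array. Desaturation and elongation was at 0.085 without saline 1 and P. gingivalis 3 and -0.097 to 0.059 without 1 array. Glycerolipid genes were at 0.20 with normexp.

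Signs turned for single genes as follows. With normexp Me1 was at 0.017. With quantile normalization Fads2 was at 0.024, Lss at 0.055 and Cyp51 at 0.039. With the median of kept probes Me1 was at 0.0074. With the all-spot median Mlxipl was at 0.031, Fasn 0.10, Me1 0.13, Scd2 0.079, Elovl5 0.042, Fads2 0.044, Fads3 0.084, Mvk 0.0072, Mvd 0.018, Idi1 0.037, Fdps 0.082, Lss 0.11 and Cyp51 0.12. With the mean of probes Me1 was at 0.063, Fads1 -0.23, Mvk 0.024 and Lss 0.34. Without saline 1 and P. gingivalis 3 Fads2 was at 0.083, Fads3 0.088, Sqle 0.0069 and Cyp51 0.0065. In the authors' deposited table, with groups turned, Insig1 was at 0.034, Insig2 -0.021, Me1 0.088, Lss 0.34, Cyp51 0.076 and Gpam -0.0031. Without 1 array the ranges were -0.26 to 0.030 for Fads2, -0.18 to 0.088 for Fads3, -0.073 to 0.030 for Cyp51, -0.16 to 0.0050 for Fasn, -0.092 to 0.0045 for Lss, -0.043 to 0.029 for Me1, -0.11 (without P. gingivalis 2) to 0.66 for Scd1 and -0.0014 to 0.099 for Gpam.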
